A study of Homo sapiens with 12 samples.

Results

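Exons with tandem splice sites carry a pair of nearby sites at the same end, so that the exon is made in a longer and a shorter version that share their other end. Such exons were collected from the RNA-seq table of exon events as pairs of exons longer than 50 nt and shorter than 500 nt that share one boundary and differ at the other by 1 to 15 nt, an offset. The rule gave 1464 pairs made of 2880 exons, of 69447 exons of that length in 114816 events, and it used positions only, no measured value. Each exon was represented by its event with most counts, and in 1309 pairs (89.4%) both events had the same flanking splice sites. The pairs lie in 1425 exon clusters, of which 29 hold several pairs (68 in all) that share an exon.

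The study compared GS689.Li (GS689 below) with PC3E, both of them human sublines of PC3, a prostate cancer line, GS689 being mesenchymal and PC3E epithelial in character. The labels record no treatment or genetic change for either line. Each line had 3 RNA-seq libraries and 3 libraries of RASL-seq, a targeted assay that ligates probe pairs across splice junctions and counts the products. The RNA-seq table holds 2 numbered sets of 3 libraries, called set 2 and set 1 here, whose columns carry no line's name, and no set was assigned to a line from its values. RNA-seq results are therefore given for the sets, and only RASL-seq results are given for the lines. Replicates carry a number but no label says that they were grown as separate cultures, so a p-value reflects only the spread of these libraries, and that spread may be technical.

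A splice acceptor ends an intron, nearly always with the bases AG, and a donor starts one, usually with GT. When a second AG or GT lies a few bases away, the spliceosome can use either site, and the short segment between them is kept as exon or removed with the intron. The best known case is the NAGNAG acceptor, at which 3 bases are kept or lost and the protein gains or loses a single residue while the reading frame is kept. A segment whose length is not a multiple of 3 shifts the frame within a coding sequence, and transcripts with a premature stop codon can be degraded by nonsense-mediated decay.

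The first bases of the longer exon at tandem acceptors, and the last bases at tandem donors, show what the versions differ by. The 30 nt at the tandem end of the longer version are given 5′ to 3′ on the transcribed strand, from the transcripts of GENCODE release 29, with the segment that only the longer version holds in capitals. The acceptor pairs shown were called between the sets, or are deep pairs and regulators of splicing or chromatin whose values are described further on.
BRCA1, 3 nt acceptor: CAGtattaacttcacagaaaagtagtgaat
GNAS, 3 nt acceptor: CAGtgagaaggcaaccaaagtgcaggacat
ADAM15, 3 nt acceptor: CAGgctagtgctctcagcttcccggccccc
RBCK1, 3 nt acceptor: CAGaggaaatggccctgagcctcacccgag
HNRNPC, 3 nt acceptor: TAGagatgaagaatgataagtcagaagagg
TAF1C, 3 nt acceptor: GAGaaggggcgtcggtgccccgcctggcag
IGFBP6, 6 nt acceptor: TTGCAGaggagaatcctaaggagagtaaac
SMARCA4, 9 nt acceptor: ACCCTGAAGgccatcgaggagggcacgctg

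The donor pairs are shown because their extra segments begin with the intron's usual first bases, and because ABHD11 and OGFOD3 were among the pairs called between the sets.
ABHD11, 5 nt donor: aagatcttggcccagcagacaggccGTAGG
OGFOD3, 8 nt donor: aggactacgacagtcaccgcagGTTCGAAG
SRSF7, 9 nt donor: tggttctataaaaggatcgagGTATTTCCA
HNRNPAB, 9 nt donor: ggaaccgaggcagcggaggtgGTGGTGGAG
YAP1, 12 nt donor: caagaactgcttcggcagGTGAGGCCACAG

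In the acceptor examples the extra segment ends with AG, the bases that an intron would end with if the downstream site were used. In the donor examples it begins with GT, the bases that the intron would start with if the upstream site were used.

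Tandem acceptors outnumbered tandem donors, with 1004 acceptor pairs and 460 donor pairs. Offsets divisible by 3 made up 732 pairs (50%) and other offsets the same number, while among the 2993 pairs of offset 16 to 100 nt 1214 (40.6%) were divisible by 3. The most frequent kind was the 3 nt acceptor, with 381 pairs, followed by the 4 nt acceptor with 144, the 4 nt donor with 114 and the 5 nt acceptor with 100. At donors 3 nt offsets were rare, with 18 pairs. In the plot of pairs by offset the 3 nt acceptor stands above every other bar.

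**Figure D1:**
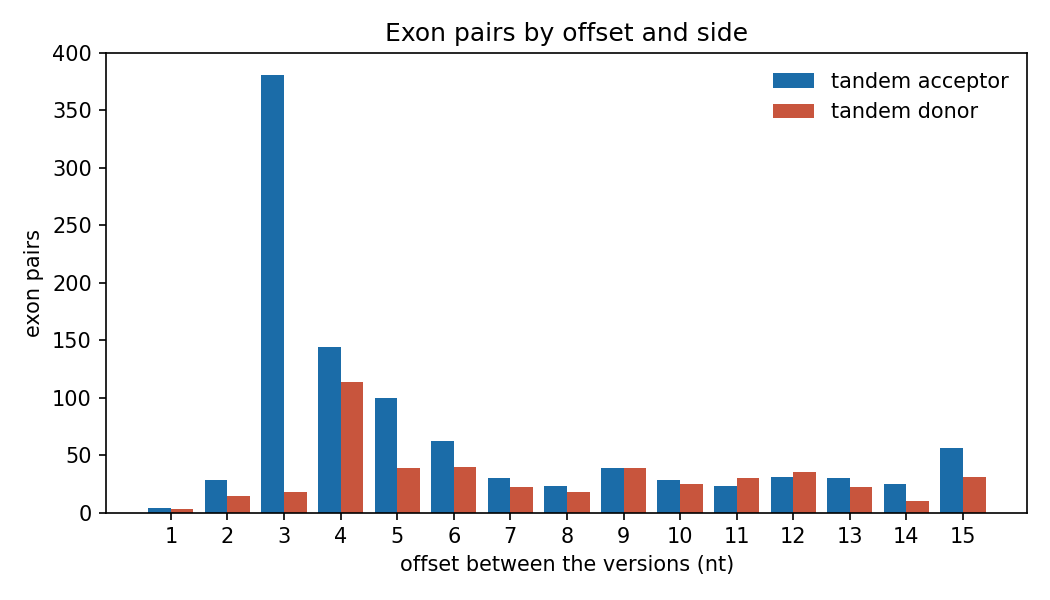
Number of tandem exon pairs (y axis) by the offset between the versions in nt (x axis), for tandem acceptors and tandem donors. The 3 nt acceptor has 381 pairs, against 18 at the 3 nt donor, and the 4 nt donor is the most frequent donor offset with 114.

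The letters at the tandem ends were those of splice sites. The motifs AG and NAG at the end of an acceptor segment, and GT and GC at the start of a donor segment, were searched at that fixed position on the transcribed strand only, in the 1379 pairs of which both versions are annotated. The extra acceptor segment of 3 nt or more ended with AG in 919 of 923 pairs (99.6%). Among 363 acceptor pairs of 3 nt it was NAG in 360 (99.2%), against 46 (12.7%) for the next 3 nt of the same exons. The first letter was unevenly spread, with CAG in 248 pairs (68.3%), TAG in 53 (14.6%), AAG in 49 (13.5%) and GAG in 10 (2.75%). The extra donor segment began with GT in 383 of 427 pairs (89.7%) and with GC in 43 (10.1%), against GT in 6 (1.41%) for the 2 nt just before it. Both ends are annotated exon boundaries in these pairs, so the letters follow largely from the annotation. A match describes these letters and does not by itself show a used site.

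How much each version was used was first taken from the inclusion counts, as the share of the longer version in the inclusion counts of both. Of the 1464 pairs, 1345 had a mean of at least 20 such counts per library and met the minimum for the test, and 119 did not. The tested pairs had a median of 634 counts per library (range 21.7 to 429000) and lay in 1149 named genes. Their median share was 57.1% (quartiles 42.1% and 65.5%). By library the median was 56.2%, 56.5% and 56.0% in set 2, and 56.8%, 56.0% and 56.8% in set 1, so the libraries did not differ in this overall value by more than 1 point. Pairs with offsets divisible by 3 had a median share of 54.4%, and other pairs 60%. Acceptors had 59.3% and donors 47.8%. At acceptors the median lay at 63.5% for 4 nt, 62.3% for 5 nt and 64.2% for 6 nt, and at 45.3% for 13 nt, 38.1% for 14 nt and 39.7% for 15 nt. Across the upper bound of the rule, pairs of 13 to 15 nt had a median of 43.7% (159 tested) and those of 16 to 18 nt 45.7% (190 tested).

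These shares are compressed by how the counts were made. In exons of more than 100 nt the inclusion count of an event was exactly the sum of the reads on its upstream and downstream junctions in 2547 of 2821 events that could be checked (90.3%), in all 6 libraries. In shorter exons this held in 146 of 1790 events (8.16%), where the sum exceeded the inclusion count by a median factor of 1.25. Both versions of a tandem pair share one junction, so its reads stand in the counts of both and pull the share towards 50%. A pair that uses a single version gives a share near 33.3% or 66.7% when the shared junction has as many reads as the other one, and 892 of the 1345 tested pairs (66.3%) lay between these values. A share near 60% thus does not mean that both versions were made in similar amounts.

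The use of each version without the shared reads could be recovered where the version's own junction is read elsewhere in the table, as the skipping junction of another event, or follows by difference from the shared junction in exons of more than 100 nt. All 20283 skipping junctions that occur in several events had identical counts in each of them. Of the 1464 pairs, 404 could be resolved in this way, and 295 had a mean of at least 10 junction counts per library, 67 with both junctions read directly and 228 by difference. The share in these counts is called the junction share below. It had a median of 192 counts per pair and library. Among the 261 tested pairs with the same flanks, the junction share lay at least as far from 50% as the inclusion-count share, within 0.5 points, in 259. For pairs resolved by difference this follows from arithmetic, since the same reads are taken out of both counts. It is a check of the calculation and not a separate result. Across 293 pairs both shares correlated with Pearson's r = 0.815, as a description over pairs that share libraries and part of their reads. Pairs read by this route need a suitable neighbouring event, so they are not a random part of all pairs.

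**Figure D2:**
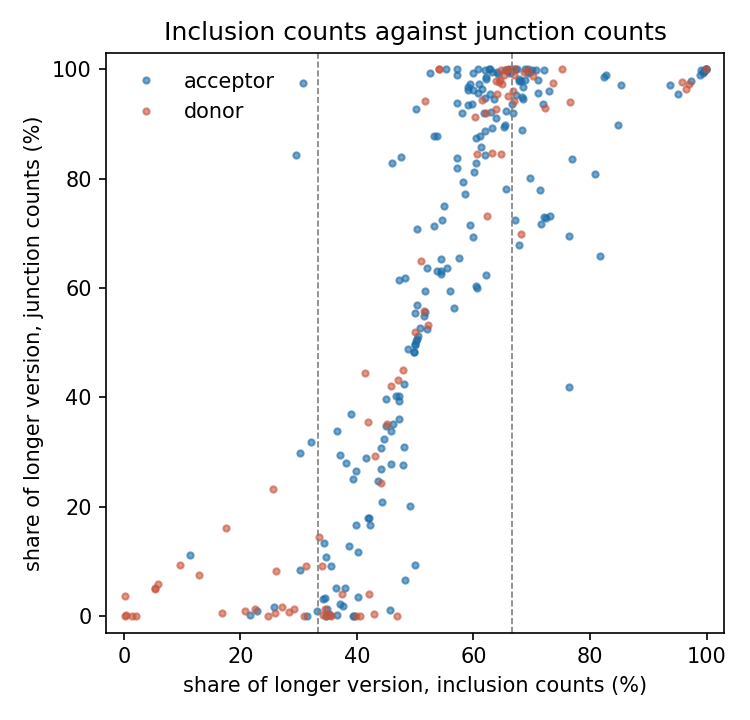
Share of the longer version in inclusion counts (x axis, %) and in the counts of the versions' own junctions (y axis, %), each point 1 resolved pair over 6 libraries, for acceptors and donors. Dashed lines mark 33.3% and 66.7%, and many pairs near them on the x axis lie close to 0% or 100% on the y axis.

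By junction counts most resolved pairs were dominated by one version, with less than 10% of the rarer one, and 3 nt acceptors were the clearest exception. Of the 295 resolved pairs, 127 (43.1%) had at least 10% of the rarer version, 82 (27.8%) at least 25%, and 75 (25.4%) less than 1%. With offsets divisible by 3 the rarer version reached 10% in 86 of 146 pairs (58.9%), and with other offsets in 41 of 149 (27.5%). The median share of the rarer version was 15.7% for offsets divisible by 3 and 2.79% for the others. In single libraries this median was 17.2%, 14.1% and 14% in set 2 and 16.6%, 13% and 12.2% in set 1 for offsets divisible by 3. For other offsets it was 2.11%, 2.0% and 2.94% in set 2 and 2.54%, 2.22% and 2.25% in set 1. The medians of the classes did not overlap in any library, at similar depth (a median of 212 and 176 junction counts). No test was made between the classes, since pairs are not replicates of a condition.

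The difference between offsets lay mostly in the 3 nt acceptors. There the rarer version reached 10% in 71 of 86 pairs (82.6%), with a median of 27.6%. At acceptors with an offset of 6 to 15 nt divisible by 3 it did so in 7 of 31 pairs (22.6%, median 2.15%), close to the 29 of 93 (31.2%, median 3.14%) of acceptors with other offsets. At donors the counts were 8 of 29 (27.6%) for offsets divisible by 3 and 12 of 56 (21.4%) for others. Single offsets varied within these classes, with 9 of 19 pairs at 5 nt acceptors (47.4%) and 0 of 6 at 6 nt acceptors. Among 3 nt acceptors the longer version had a median junction share of 58.2% with CAG as its extra segment (62 pairs), 72.8% with TAG (11 pairs) and 73.0% with AAG (9 pairs). The single resolved GAG pair had 99.5%. Over the inclusion counts of all tested 3 nt acceptors the median shares ran in the same order, at 52.8% for CAG, 57.5% for TAG, 62.2% for AAG and 62.7% for GAG.

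**Figure D3:**
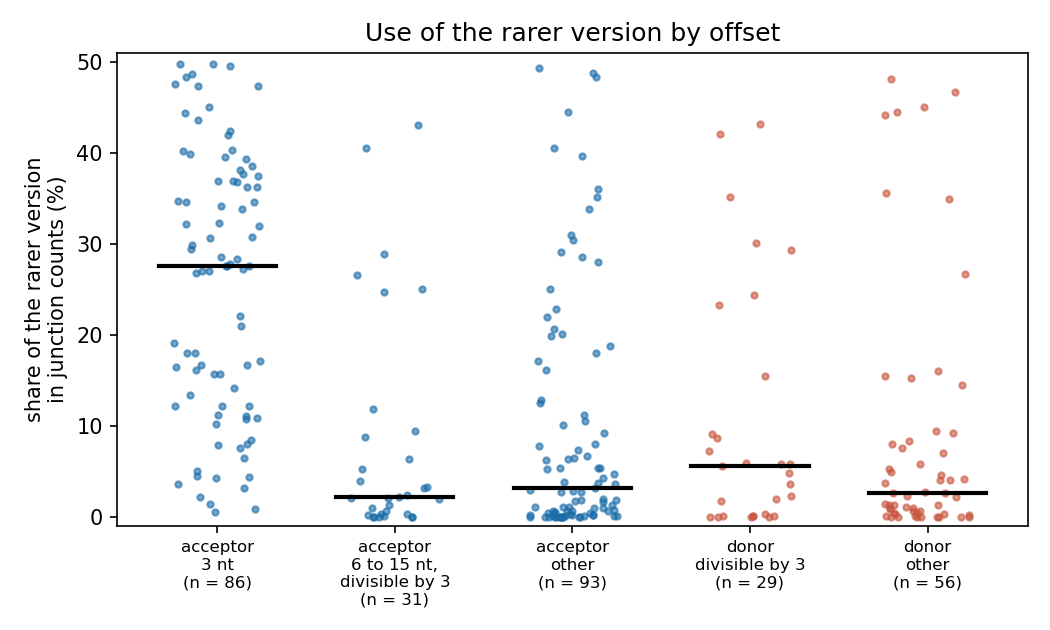
Share of the rarer version in junction counts (y axis, %) for resolved pairs, by side and offset, each point 1 pair over 6 libraries with horizontal scatter for visibility and a bar at the median. The 3 nt acceptors have a median of 27.6%, and the medians of the other 4 classes lie below 6%.

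GNAS, which encodes the stimulatory G protein alpha subunit, was the deepest resolved 3 nt acceptor among the named pairs (chr20:57478583-57478640, a coding exon of 58 nt). Its longer version had 4233, 5690 and 4887 junction counts in set 2 and 1867, 2812 and 2554 in set 1. For the shorter version there were 2446, 3211 and 2785 counts in set 2 and 1048, 1854 and 1476 in set 1. Both versions were abundant in each library. The junction share was 63.7% ± 0.275 in set 2 and 62.6% ± 2.02 in set 1 (SD, n = 3 each), with a difference of 1.10 points inside the spread of set 1 (adjusted p = 0.739).

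The annotation of the versions followed the same split. Both versions stood in annotated protein-coding transcripts in 835 pairs, the longer alone in 266, the shorter alone in 170 and neither in 108. In the counts of this paragraph, a version is called coding if it stands in such a transcript, even where the exon itself is untranslated. With offsets divisible by 3, both were coding in 558 pairs, the longer alone in 44 and the shorter alone in 44. With other offsets both were coding in 277, the longer alone in 222 and the shorter alone in 126. Where the longer version alone was coding, it was the more used one in 43 of 46 resolved pairs, with a median junction share of 97.8%. Where the shorter alone was coding, it was the more used one in 25 of 29, with a median of 96.9% for the shorter version. Where both were coding, the rarer version reached 10% in 100 of 192 pairs (52.1%). An annotated coding transcript may have been chosen for its abundance, so the annotation is not independent of use.

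The sets were compared by the share of the longer version in inclusion counts, over all 4076 pairs of offset 1 to 100 nt in one model. A pair was called at a Benjamini-Hochberg adjusted p under 0.05 in a quasi-binomial model with dispersions moderated by limma, if its mean share also differed by 3 percentage points or more. Of the 1345 tandem pairs 17 were called (1.26%), 9 with a higher share of the longer version in set 2 (0.669%) and 8 with a lower one (0.595%). Among the pairs of offset 16 to 100 nt 47 of 2731 were called (1.72%), and over all pairs 64 (1.57%). The tandem pairs' share is near that background. At an unadjusted p under 0.05 there were 175 of the 1345 tandem pairs. No such count is given for the wider offsets, so the 175 are not read as a result about tandem exons. The sets did not overlap in 236 tandem pairs (17.5%), against 20.5% for the wider offsets. The median size of the difference was 1.04 points. Calls were spread over both classes of offset, with 7 of 682 pairs divisible by 3 and 10 of 663 others. With dispersions held at 1 or above, rather than free (median 0.565), 5 pairs were called, and a limma fit of log2 ratios called 4. The count also rested on single libraries. It was 1 without set 2 library 1, 2 without set 2 library 2, 11 without set 2 library 3, 2 without set 1 library 1 and 5 without set 1 library 3. Without set 1 library 2 it was 22, of which 14 were among the 17.

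**Figure D4:**
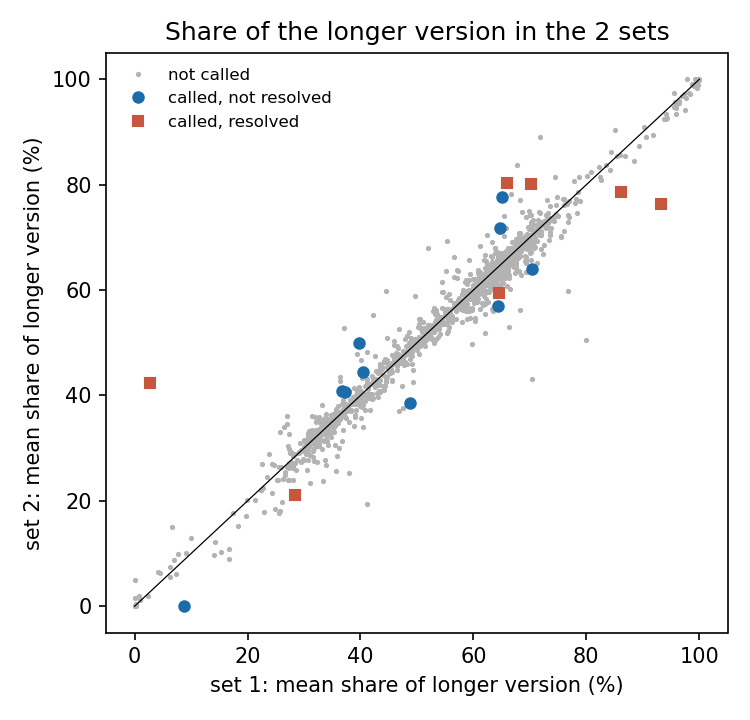
Mean share of the longer version in set 2 (y axis, %) against set 1 (x axis, %) over inclusion counts, each point 1 of 1345 tested tandem pairs. Symbols mark the 17 called pairs, 7 of which could be resolved by their own junctions and 10 not, and the line marks equal shares.

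Of the 17 called pairs, 7 could be resolved, and 5 of these differed by less than 3 points in the junction share. The exception with both versions well used was BRCA1, a DNA repair gene (chr17:41228505-41228631, coding exon of 127 nt). Its longer version had 95, 51 and 76 inclusion counts in set 2 and 87, 67 and 83 in set 1. Its shorter version had 22, 13 and 19 in set 2 and 50, 30 and 44 in set 1. The longer version's share was 81.2%, 79.7% and 80.0% in set 2, against 63.5%, 69.1% and 65.4% in set 1. All 3 libraries of set 2 lay above all of set 1, and the difference was 14.3 points (80.3% ± 0.797 and 66.0% ± 2.84, SD, n = 3 each, adjusted p = 0.0223). The common junction of this event pair had 0 reads in set 2 and at most 1 in a library of set 1, so the counts are nearly all from the versions' own junctions. The junction share differed by the same 14.3 points, with an adjusted p of 0.0563 over the 295 resolved pairs, which misses the threshold. The call over inclusion counts was lost when any single library except set 1 library 2 was left out and with dispersions held at 1 or above (largest adjusted p = 0.204).

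SIGIRR, an inhibitory receptor of the interleukin-1 receptor family, had the largest difference and kept its call under every alternative over inclusion counts that was run. Its longer version, by an 8 nt donor (chr11:409860-410027), had 76, 107 and 68 inclusion counts in set 2 and 17, 13 and 13 in set 1. The shorter version had 115, 115 and 107 in set 2 and 447, 618 and 527 in set 1. The share was 42.3% ± 5.14 in set 2 and 2.71% ± 0.844 in set 1 (SD, n = 3 each, 39.6 points, adjusted p = 0.000584). The junctions of the tandem donor itself showed no such difference. The longer version's own junction had 2, 1 and 1 counts in set 2 and 7, 3 and 6 in set 1, against 113, 109 and 102 in set 2 and 347, 464 and 399 in set 1 for the shorter. The junction share was 1.21% ± 0.462 in set 2 and 1.37% ± 0.675 in set 1. The events compared have different flanking exons, and between events with the same flanks the difference was 26.8 points (adjusted p = 0.000854). The other junction of the longer version's event had 74, 106 and 67 reads in set 2 and 10, 10 and 7 in set 1.

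In the other 5 resolved calls the junction share did not pass the test. APLP2, an amyloid precursor-like protein, had a share of 21.2% ± 1.09 in set 2 and 28.4% ± 1.95 in set 1 at a 15 nt donor (chr11:129979324-129979512; adjusted p = 0.0254). Its longer version had 0, 3 and 1 junction counts in set 2 and 9, 5 and 3 in set 1, beside 6123, 7141 and 5773 for the shorter in set 2 and 3932, 4705 and 5261 in set 1, with junction shares of 0.0198% ± 0.0211 in set 2 and 0.131% ± 0.0882 in set 1. These shares did not overlap and had the direction of the call (adjusted p = 0.719), but so near 0% a difference in points says little. ABHD11, a mitochondrial hydrolase, had 80.1% ± 1.71 in set 2 and 70.2% ± 0.848 in set 1 at a 5 nt donor (chr7:73152658-73152793; adjusted p = 0.0175).

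At ABHD11 the shorter version had 0 junction counts in all 6 libraries, against 240, 243 and 301 for the longer in set 2 and 452, 489 and 427 in set 1. The share of a version with no junction reads thus differed by 9.93 points, while the common junction had 69, 79 and 115 reads in set 2 and 355, 366 and 292 in set 1. IGFBP6, an insulin-like growth factor binding protein, had 59.5% ± 0.900 in set 2 and 64.6% ± 1.30 in set 1 at a 6 nt acceptor (chr12:53494496-53494641; adjusted p = 0.0314), with junction shares of 99.9% ± 0.123 in set 2 and 99.7% ± 0.0700 in set 1, which did not overlap either and lay close to the upper limit. RBCK1, a subunit of the linear ubiquitin ligase complex, had 78.6% ± 1.52 in set 2 and 86.1% ± 0.341 in set 1 at a 3 nt acceptor (chr20:390525-390669; adjusted p = 0.0102), with junction shares of 98.6% in set 2 and 98.5% in set 1.

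POLM, a DNA polymerase of end joining, had 76.4% ± 3.48 in set 2 and 93.2% ± 2.76 in set 1 at an 8 nt acceptor (chr7:44113997-44114129; adjusted p = 0.0322), a difference of -16.9 points. Between events with the same flanks the difference was -8.45 points and not called (adjusted p = 0.187), and the call was also lost when any single library was left out. Its junction share ran the other way, at 91.7% ± 1.60 in set 2 and 88.1% ± 3.60 in set 1, a difference of 3.59 points that did not pass the test (adjusted p = 0.728). In ABHD11, IGFBP6 and APLP2 the versions compared had the same flanks, and in POLM and RBCK1 they did not.

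**Figure D5:**
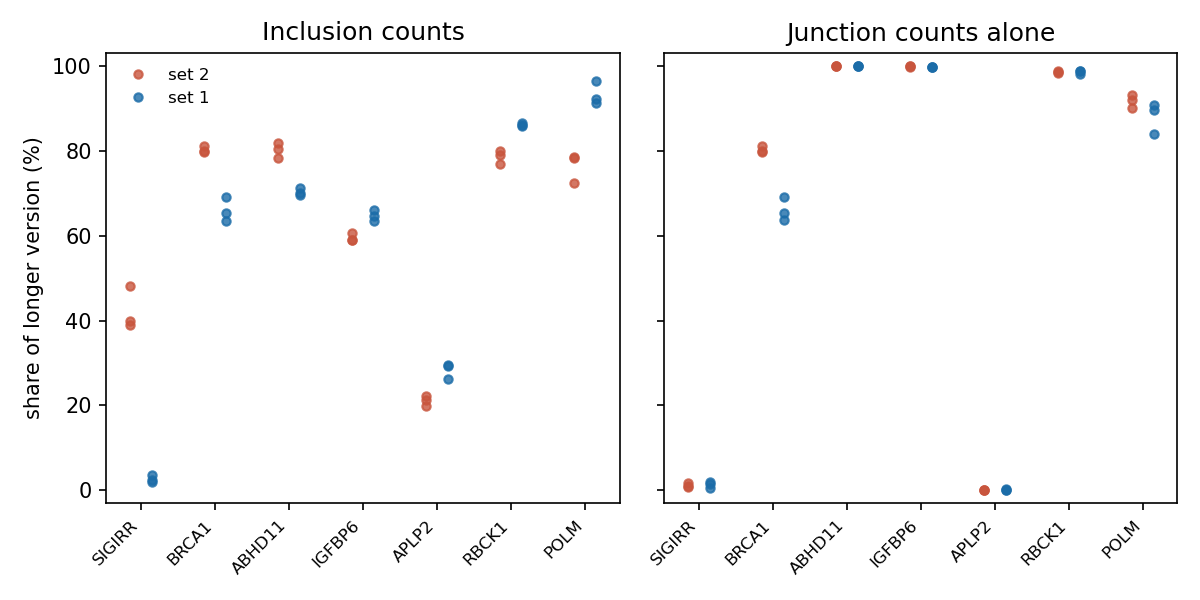
Share of the longer version (y axis, %) in each library of set 2 and set 1 for the 7 called pairs that could be resolved, from inclusion counts (left panel) and from the versions' own junctions alone (right panel). The sets are apart in all 7 pairs on the left, and by over 5 points on the right only in BRCA1.

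The other 10 called pairs were not resolved with enough junction counts. A difference in version use and a difference in reads of the shared junction were therefore not told apart there. Of the 9 with the same flanks, 6 lay nearer to 50% in set 2 and 3 farther from it, and no called pair crossed 50%. ADAM15, a membrane metalloprotease, had the largest difference among the acceptors of 3 nt with a lower share in set 2 (chr1:155033891-155033965, coding exon of 75 nt). Its share was 38.5%, 38.2% and 38.9% in set 2, against 49.8%, 48.6% and 48.0% in set 1. The sets did not overlap, and the difference was -10.3 points (adjusted p = 0.0479, lost when any single library was left out). The exon was rarely included in set 2, with 28, 22 and 24 inclusion counts for the longer version in set 2 and 280, 451 and 290 in set 1.

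ADGRG1, an adhesion G protein-coupled receptor, differed by 10.3 points at a 4 nt acceptor in a noncoding exon (chr16:57675499-57675620; adjusted p = 0.0223). Its longer version had 144, 119 and 143 inclusion counts in set 2 and 361, 334 and 379 in set 1. The shorter version had 145, 119 and 143 in set 2 and 550, 476 and 615 in set 1. In set 2 the versions had almost the same counts in every library, which is also what an event with reads on the shared junction alone would give.

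OGFOD3, an oxygenase-like protein, had 77.8% ± 3.29 in set 2 and 65.1% ± 0.920 in set 1 at its 8 nt donor (chr17:80373274-80373503; adjusted p = 0.0223). Another event pair of this exon had at most 1 read per library on each version's own junction. Its common junction had 54, 89 and 116 reads in set 2 and 327, 311 and 383 in set 1. Whether the events compared have that same common junction was not tested. PFN2, an actin-binding profilin, had 71.9% ± 1.33 in set 2 and 64.7% ± 1.49 in set 1 at a 7 nt acceptor (chr3:149686145-149686337; adjusted p = 0.0314). In both genes the longer version alone is annotated as coding, and it had the higher share in set 2. RAP1B, a small GTPase of cell adhesion, had 64.0% ± 0.501 in set 2 and 70.4% ± 1.01 in set 1 at a 7 nt acceptor (chr12:69042479-69042561; adjusted p = 0.017). TAF1C, a subunit of the RNA polymerase I selectivity factor, had 57.0% ± 1.22 in set 2 and 64.4% ± 1.16 in set 1 at its 3 nt acceptor (chr16:84213552-84213689; adjusted p = 0.0314). In RAP1B and TAF1C the longer version's share was lower in all libraries of set 2 than in any of set 1.

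ALDH3A2, a fatty aldehyde dehydrogenase, had 0 inclusion counts of the longer version in all 3 libraries of set 2 and 7, 6 and 5 in set 1 at a 7 nt acceptor (chr17:19576513-19576588), against 16, 41 and 33 for the shorter in set 2 and 56, 75 and 52 in set 1. The longer version's counts were few in set 1 as well, and the 2 events have different flanks (adjusted p = 0.0232). The remaining 3 called pairs had smaller differences with a higher share in set 2. SLC25A39, a mitochondrial glutathione carrier, had 40.7% ± 0.790 in set 2 and 37.3% ± 0.413 in set 1 at a 13 nt acceptor (chr17:42400846-42400958; adjusted p = 0.0311). HMG20B, a subunit of a histone demethylase complex, had 44.5% ± 0.421 in set 2 and 40.5% ± 1.09 in set 1 at a 13 nt acceptor (chr19:3574368-3574584; adjusted p = 0.042). TM9SF1, a multispanning membrane protein, had 40.9% ± 0.956 in set 2 and 36.7% ± 0.618 in set 1 at a 15 nt acceptor (chr14:24663881-24664257; adjusted p = 0.0373). Each of these 10 calls was lost when at least 2 single libraries were left out in turn.

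Tested on junction counts alone, 1 of the 295 resolved pairs was called (0.339%), the sets did not overlap in 30 (10.2%), and 17 had an unadjusted p under 0.05. Over inclusion counts the sets did not overlap in 17.5% of all tested tandem pairs, which is another measure over more pairs. Pairs of wider offsets were not resolved, so the 30 and 17 pairs have no background of their own. They are not read as a result about these exons. The called pair was a 9 nt acceptor of EEF1D, a translation elongation factor subunit (chr8:144672778-144672908). Its shorter version had 0 junction counts in all 3 libraries of set 2 and 3, 2 and 2 in set 1, beside 16, 14 and 18 for the longer in set 2 and 52, 39 and 46 in set 1. The junction share was 100% in set 2 and 95.2% ± 0.645 in set 1 (adjusted p = 0.0388), and set 2 had fewer counts of the exon. The call thus rests on few reads of the shorter version. Dispersions were free to fall below 1 in this fit, although junction counts hold no shared reads. A fit of junction counts with dispersions held at 1 or above was not run. The next were BRCA1 (above) and RPLP0, a ribosomal stalk protein, whose 11 nt donor had a junction share of 1.26% ± 0.0178 in set 2 and 0.683% ± 0.131 in set 1 (adjusted p = 0.163). EEF1D and RPLP0 were chosen after their values were seen.

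Of the 257 tested pairs with a mean share between 45% and 55%, 59 were resolved, and 45 of these had at least 25% of each version by junction counts while 9 had less than 10% of one. The deepest such pairs included those of LY6E, RPL32 and GNAS and 3 in one cluster of HNRNPAB. RPL32, a ribosomal protein, had 50% in every library at a 12 nt acceptor, while the versions' own junctions had a mean of 24.8 counts per library in all, with a junction share of 13.1% ± 5.17 in set 2 and 5.71% ± 0.642 in set 1 (adjusted p = 0.719).

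HNRNPAB, an RNA-binding protein, had 53.8% ± 0.230 in set 2 and 54.4% ± 0.166 in set 1 at its 15 nt donor (chr5:177636331-177636448), and the shorter version had 0 junction counts in each library. LY6E, a membrane-anchored protein of the Ly6 family, had 54.5% ± 1.08 in set 2 and 55.4% ± 0.178 in set 1 at its 5 nt acceptor, and a junction share of 75.3% ± 4.48 in set 2 and 74.6% ± 0.432 in set 1. None of these pairs was called.

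Of 25 genes on a list of tandem sites described in the literature, 11 had pairs, and 1 of their 13 tested pairs was called, that of BRCA1. Their median size of difference was 1.60 points, against 1.04 over all tested tandem pairs. In SMARCA4, the ATPase of a chromatin remodelling complex, the longer version of a 9 nt acceptor (chr19:11151974-11152236) had 375, 310 and 380 junction counts in set 2 and 389, 403 and 485 in set 1. For the shorter version these were 1055, 929 and 874 in set 2 and 1180, 1195 and 1268 in set 1. The junction share was 27.2% ± 2.77 in set 2 and 25.9% ± 1.55 in set 1, so both versions were made in all libraries and the sets overlapped (adjusted p = 0.944). HNRNPR, an RNA-binding protein, had shares of 48.8% ± 0.860 in set 2 and 49.0% ± 0.487 in set 1 at a 3 nt acceptor that was not resolved.

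Of 43 genes that act in splice site selection 11 had pairs, with 0 of 11 tested pairs called and a median size of 0.770 points. SRSF7, a serine and arginine rich splicing factor, had a junction share of 94.3% ± 0.404 in set 2 and 94.2% ± 0.671 in set 1 at its 9 nt donor (chr2:38975189-38975299). U2AF2, which recognises the polypyrimidine tract of acceptors, had 39.2% ± 0.723 in set 2 and 38.9% ± 0.464 in set 1 in inclusion counts at a 12 nt donor. HNRNPC, which binds uridine-rich RNA, had 69.1% ± 1.02 in set 2 and 68.3% ± 0.662 in set 1 at its 3 nt acceptor. PUF60, a U2AF-related factor, had 56.0% ± 0.391 in set 2 and 58.7% ± 0.742 in set 1 at a 3 nt acceptor, a difference of -2.70 points (adjusted p = 0.104) that was called when set 1 library 2 was left out (adjusted p = 0.0297; 0.0297 to 0.342 over the alternatives). Of 16 genes of nonsense-mediated decay none had a pair.

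Of 31 genes on a list of exons that change in epithelial to mesenchymal transition or depend on the ESRP splicing factors, 9 had pairs, with 0 of 10 tested pairs called and a median size of 2.17 points. YAP1, a transcriptional coactivator of the Hippo pathway, had 134, 118 and 97 junction counts for the longer version of its 12 nt donor (chr11:102076624-102076817) in set 2 and 100, 62 and 116 in set 1. The counts of the shorter version were 398, 493 and 306 in set 2 and 312, 204 and 268 in set 1. The junction share was 22.9% ± 3.12 in set 2 and 25.9% ± 3.74 in set 1, and the sets overlapped (adjusted p = 0.756). Over inclusion counts the YAP1 share was 42.8% ± 0.930 in set 2 and 45.5% ± 0.993 in set 1. There the sets did not overlap, but the pair was not called (adjusted p = 0.159). KLC1, a kinesin light chain, had 65.8% ± 0.429 in set 2 and 65.0% ± 1.17 in set 1 in inclusion counts at a 6 nt donor. ESRP1, an epithelial splicing factor, had 3, 12 and 9 inclusion counts for the longer version of its 12 nt donor in set 2 and 2417, 3369 and 3247 in set 1, too few in set 2 for a comparison of versions (61.6% ± 10.5 in set 2 and 54.5% ± 0.704 in set 1).

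Whether the whole exon was included was a separate measure, which used the skipping counts. The inclusion level of the tandem exons had a median of 98.9%, against 99.3% for other exons of that length, and it lay under 95% in 849 of 2742 events of tandem exons (31.0%) and in 21342 of 91463 events of other exons (23.3%). In 66 of 1406 tested events of tandem exons (4.69%) inclusion was called between the sets, at a difference of at least 5 points, with 21 higher in set 2 (1.49%) and 45 lower (3.20%). Over all 40375 tested events 1202 were called (2.98%), 519 higher (1.29%) and 683 lower (1.69%). The difference between these shares was not tested, and the versions of a pair share reads, so the 66 events are not independent. A limma fit of log2 ratios called 14 events in place of 66, and at an unadjusted p under 0.05 there were 244. No share over all tested events is given for these 2 counts, so they are not read as a result about tandem exons. Of 680 pairs with both versions tested, both were called in 23, in the same direction in all 23, a single one in 18 and neither in 639.

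The largest differences in inclusion at tandem exons are given as examples chosen for their size. CD44, a hyaluronan receptor whose variable exons are a known mark of epithelial splicing, had inclusion levels of 0.203%, 0.125% and 0.302% in set 2, against 50.9%, 57.0% and 50.5% in set 1, for the longer version at a 3 nt donor (chr11:35229652-35229756). CTNND1, which encodes p120 catenin of adherens junctions, ran the other way at a 2 nt acceptor (chr11:57558964-57559145), with 56.1%, 49.8% and 51.1% in set 2 and 5.74%, 5.98% and 4.47% in set 1. In both genes the sets were far apart (adjusted p = 4.18e-71 and 1e-40). The shorter versions gave nearly the same levels, but the versions of a pair share reads and are not separate measurements.

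The share of the longer CD44 version was 50% in each library of set 2 and 49.9% ± 0.135 in set 1, with 0 reads on its own junction. ADGRG1 had an inclusion of 100% in every library of set 2, against 64.8%, 68.4% and 55.2% in set 1, for its longer version. NDUFB2, a subunit of respiratory complex I, had 2.17%, 4.24% and 5.58% in set 2 and 78.0%, 47.8% and 79.6% in set 1 for its longer version (chr7:140400670-140400759).

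GOLGB1, a Golgi tethering protein, had 46.2% ± 5.07 in set 2 and 81.6% ± 3.41 in set 1 for the longer version and 40.9% ± 5.43 and 79.3% ± 4.46 for the shorter. ERC1, an active zone scaffold protein, had 33.1% ± 1.29 in set 2 and 70.2% ± 8.50 in set 1 for the longer version. Higher inclusion in set 2 was also called for PAK4, a p21-activated kinase, with 70.8% ± 6.24 in set 2 and 52.7% ± 5.21 in set 1, and for REPS1, an endocytosis protein, with 90.1% ± 4.63 and 76.7% ± 5.75, both for the longer version. In GOLGB1, ERC1, PAK4 and REPS1 both versions were called, in the same direction, which is no separate evidence since versions of a pair share reads.

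RASL-seq, whose columns name the lines, covered 28 events of tandem exons among 2023, of which 13 were tested. The total counts of 6 marker genes in that table went with the character of the lines, with VIM, an intermediate filament of mesenchymal cells, at 4090, 3636 and 2579 counts in GS689 and 146, 130 and 191 in PC3E. LSR, an epithelial tight junction protein, had 0, 0 and 2 counts in GS689 and 84, 73 and 76 in PC3E. OCLN, SPINT2 and LLGL2, also epithelial, were lower and ZEB1, a mesenchymal transcription factor, higher in every GS689 library than in any PC3E library. Inclusion was called in 1 of the 13 events (7.69%, against 64 of 1124 or 5.69% over all events). FOXRED1, an assembly factor of respiratory complex I, had 271, 242 and 214 inclusion counts beside 63, 52 and 47 skipping counts in GS689, and 327, 323 and 359 beside 43, 27 and 54 in PC3E (chr11:126144822-126144916). Its inclusion was 81.8% ± 0.624 in GS689 and 89.2% ± 2.79 in PC3E (SD, n = 3 each, adjusted p = 0.0493), and the call was lost when any library except PC3E replicate 1 was left out. RCC1, the exchange factor of the GTPase Ran, had 82.0% ± 5.19 in GS689 and 63.4% ± 11.5 in PC3E and missed the threshold (adjusted p = 0.0701).

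Both versions of an exon were measured by RASL-seq in 2 pairs. At the 3 nt acceptor of ADAM15 the longer version had 0, 1 and 0 counts in GS689 and 3, 3 and 7 in PC3E. The shorter version had 3, 1 and 4 counts in GS689 and 10, 15 and 25 in PC3E. The share of the longer version was 0.0%, 50% and 0.0% in GS689, against 23.1%, 16.7% and 21.9% in PC3E, and the lines overlapped (exact permutation test, two-sided, p = 1.0, where 3 against 3 libraries cannot go below 0.1). At these counts a difference was not detectable. The shorter version had more counts than the longer in every PC3E library, and whether their probe pairs differ in yield was not tested. The other pair, on chromosome 8 and without a gene name, had 0 counts of the longer version in all 6 libraries.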

How the data were processed

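RNA-seq and RASL-seq were deposited as 1 table each. The submitters' processing notes list kallisto 0.43.0 and STAR 2.5.2a, without roles, and build hg19. The authors deposited whole-number counts, several in each cell: per the file headers, inclusion and skipping counts of 2 sets of 3 libraries (RNA-seq), and a count pair per library (RASL-seq). Table totals of 93842790 to 120853566 per RNA-seq library count a read in several events and are not depth. Columns of per-sample values left unused numbered 0.

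Positions are those of the files, counted from 1. Genes were named by matching exon and intron lengths to GENCODE release 29, which is on another build, with no coordinate converted: 1379 pairs matched with both versions, 46 with one, 28 no gene and 11 several. Sequences come from its transcripts.

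A quasi-binomial logistic model per pair or event (R 4.3.3) used dispersions moderated with limma 3.58.1, with Benjamini-Hochberg adjustment. Dispersions were held at 1 or above for inclusion and left free for the share and the junction share. Count minimums were 20 (share) and 10 (inclusion, junctions) per library on average. On data simulated for the share (4076 pairs), changes of 1 in log2 odds were found in 26.8% and changes of 2 in 69.8%, and 4.19% of calls were false. In every simulated library the shared junction had the same expected reads as the versions' own junctions together. The rate of false calls thus does not cover calls that come from a difference in shared junction reads between the sets. The junction-share fit was added after the data were seen. Same-numbered RASL-seq libraries did not deviate together.

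The pairs, gene lists and tests were chosen with earlier results of these data known. Named pairs are the called ones whose sets do not overlap (at most 10 in each direction by size), the 8 deepest with shares of 45% to 55%, members of the lists, and pairs measured in both assays at 20 counts or more, which none reached. ADAM15 is given under the first rule. Of the named pairs, 2 are not reported here.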

Additional observations from a re-analysis of the deposited data

How the results depend on the processing

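The count of 17 called pairs was 5 with dispersions held at 1 or above, 4 in a limma fit of log2 ratios and 1 over junction counts alone, and ranged over 1 to 22 when 1 library was left out. It stayed between 13 and 18 under the other alternatives run. For inclusion, 66 called events became 14 with limma and stayed between 47 and 93 otherwise. For RASL-seq, the single call became 0 with limma and 2 with no count minimum, and 0 to 1 with 1 library left out. With the replicate block it was 2, FOXRED1 and RCC1 (adjusted p = 0.0261), although the numbers do not pair the libraries (correlations of deviations 0.0497, -0.00174 and 0.0429). No paired analysis was possible for RNA-seq because its columns carry no replicate number. The median share for offsets divisible by 3, 54.4%, was 52.5% for exons of more than 100 nt and 62.8% over junction counts. For other offsets, 60% became 60.6% with the same flanks, 60.4% at 50 counts or more, 58.9% for exons of more than 100 nt and 88.8% over junction counts. Over junction counts the difference changed sign in SIGIRR (-0.161 points), POLM (3.59), RBCK1 (0.0603) and IGFBP6 (0.207), where the shared junction's reads are left out by construction. For pairs not resolved, the counts used here do not separate the versions from the shared junction, whatever the depth.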
